A study of Mus musculus with 620 samples.

Results

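The collagen genes of the mouse were described across 12 tissues and 11 conditions of a bulk poly(A) RNA-seq study of exenatide, age, rapamycin and hypothalamic GLP-1R knockdown. The members were all rows of the 3 deposited count tables whose gene symbol was Col, a number, a and a number, and the same 44 symbols met this rule in each table, of 24850 symbols in the LT table and 40840 in each of the other 2. They were grouped as 11 fibrillar, 8 basement membrane and 25 other collagens. The rule uses gene symbols and no measured value, and the gene family was proposed with earlier results of these data known. The series holds 620 libraries from 72 mice, with 1 library per animal and tissue and no animal in more than 1 condition. The cohorts are coded LT, ST and YA, which are read here as long-term treatment, short-term treatment and young adult, and the codes A and Y are read as aged and young.

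The LT cohort covers 12 tissues and compared aged mice given exenatide (8 animals) with aged control mice (9 animals), and those controls with young control mice (8 animals), with fewer libraries in white blood cells (5 per condition), young colon and young muscle (6 each) and aged-control frontal cortex and lung (8 each). The YA cohort covers 8 tissues and compared young adult mice given exenatide (8 animals) with their controls (8 animals). The ST cohort covers 7 tissues with 5 libraries per condition, or 4 in white blood cells of the exenatide and the rapamycin groups. Its conditions were aged mice given exenatide, aged mice given rapamycin, aged mice given exenatide with hypothalamic GLP-1R knockdown, aged mice with the knockdown alone, aged controls and young controls. Exenatide is a peptide agonist of the GLP-1 receptor and rapamycin an inhibitor of mTOR. Strain, sex, ages, doses, treatment lengths and the knockdown vector are not given in the sources used here, nor is what the aged controls of the ST cohort received in place of the knockdown. The hypothalamus is not among the ST tissues analysed here, so the knockdown was not checked at its target.

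Total counts per library ranged from 15190156 to 33786473 in the LT cohort, from 14643833 to 56205761 in the ST cohort and from 14980572 to 34149724 in the YA cohort. Levels are given as CPM, counts scaled to a fixed library size with TMM. Tests are edgeR quasi-likelihood tests across all genes of a tissue with Benjamini-Hochberg adjustment, and a gene is called where the adjusted p is under 0.05. Fold changes are log2 values with their standard errors. All p-values measure the spread between animals. Each tissue's marker list was highest in the libraries of its label in 17 of 27 cohort and tissue combinations. In the other 10, which were hippocampus, frontal cortex and white blood cells of each cohort and LT spleen, between 1 and 25 libraries were not above every library of another tissue. That tissue was spleen for LT white blood cells, white blood cells for LT spleen and hippocampus for ST frontal cortex, and it was colon, heart or adipose tissue for the other 7. In LT hippocampus all 25 libraries (289 to 818 CPM) were below the highest colon library (2835 CPM), so the list did not set LT hippocampus apart. None of 1860 pairs of libraries of 1 group agreed within sampling noise.

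Collagens are triple-helical proteins of the extracellular matrix, built from 3 chains that may come from different genes. Fibrillar collagens form the banded fibrils that give tissues tensile strength. Basement membrane collagens form the sheet-like networks under epithelia and around vessels, muscle fibres and fat cells. The others decorate fibrils, link matrices to each other, form hexagonal or beaded networks, or span the cell membrane.

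Promoter windows are shown for 3 members that carry the contrasts described below: Col1a2 and Col3a1 for the fibrillar group and Col4a2 for the basement membrane group. They are RefSeq sequences of build GRCm38.p6, which is not the GRCm39 build named in the submitters' processing notes. All 3 are on the plus strand and written 5′ to 3′. Capitals mark CCAAT (or ATTGG on the opposite strand) and the GC box GGGCGG (or CCGCCC).
Col1a2 (chr6:4505368-4505667): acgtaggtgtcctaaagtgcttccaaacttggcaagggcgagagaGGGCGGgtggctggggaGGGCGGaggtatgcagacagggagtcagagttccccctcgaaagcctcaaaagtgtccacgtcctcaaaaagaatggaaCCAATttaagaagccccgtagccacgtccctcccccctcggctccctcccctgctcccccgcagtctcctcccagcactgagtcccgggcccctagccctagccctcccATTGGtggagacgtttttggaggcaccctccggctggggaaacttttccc
Col3a1 (chr1:45311288-45311587): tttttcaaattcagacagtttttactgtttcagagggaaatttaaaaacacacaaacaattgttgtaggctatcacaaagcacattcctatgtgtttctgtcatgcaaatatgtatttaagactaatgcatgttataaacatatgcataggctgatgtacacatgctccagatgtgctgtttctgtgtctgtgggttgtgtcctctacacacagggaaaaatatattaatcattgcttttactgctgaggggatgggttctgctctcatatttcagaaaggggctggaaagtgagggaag
Col4a2 (chr8:11312705-11312854): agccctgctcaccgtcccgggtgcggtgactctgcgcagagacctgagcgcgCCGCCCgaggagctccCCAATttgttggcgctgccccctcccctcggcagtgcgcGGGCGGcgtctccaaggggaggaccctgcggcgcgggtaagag

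The Col1a2 window had GC boxes 205 and 188 bases before the annotated start and a CCAAT match 109 bases before it, and a second CCAAT match, on the opposite strand, began at the start itself. Its GC content was 61%. The Col3a1 window had neither motif and 37.7% GC. The sequence printed for Col4a2 is the last 150 bases of its window. It had a CCAAT match 32 bases before the start and GC boxes 48 bases before and 7 bases after it, with 72.7% GC, and 1 more GC box of the window lies before the printed bases. It contains the starts of Col4a2 (11312805) and Col4a1 (11312826 on the opposite strand), which are 21 bases apart. The spans of this head-to-head pair overlap by 85 bases in the GRCm38 annotation, those of Col4a4 and Col4a3 on chromosome 1 by 114 bases, and Col4a6 and Col4a5 on the X chromosome are 1274 bases apart. Reads from such overlaps cannot be told apart by strand in these unstranded libraries. Windows of 250 bases before to 50 bases from the start were held for 35 of the 44 collagens. GGGCGG or its reverse complement was in 60.5% of the 38 collagen windows and in 35.7% of all 32851 windows, and CCAAT or its reverse complement in 34.2% of the collagen windows and 37.4% of all windows. Both were found in 28.9% of the collagen windows and 12.8% of all windows. No CCAAT match overlapped a GC box match in the 3 windows shown, and a match is a description of the sequence only.

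Collagen levels by tissue were read from the young controls of the LT cohort. Collagens took a mean of 0.712% ± 0.112 of all counts in adipose tissue and 0.441% ± 0.0742 in lung (SD, n = 8 each), the highest shares of the 12 tissues. White blood cells had the lowest share, 0.00581%. At a median of 1 CPM or more were 40 members in hypothalamus, 39 in hippocampus, 38 in frontal cortex, 28 in adipose tissue, 20 in liver and 9 in white blood cells. The brain regions thus held the most members although collagens took under 0.1% of their counts, 0.0849% in hypothalamus. 5 members were at 1 CPM or more in all 12 tissues, 15 in 11 tissues, and Col10a1, the collagen of hypertrophic cartilage, in none. Adipose tissue had the highest median for 14 members, lung for 8, hypothalamus for 6 and frontal cortex for 4. The highest tissue did not overlap the next one for 18 of 44 members. Of 42 members that reached 1 CPM in a tissue shared by the cohorts, 26 had the same highest tissue among the 7 shared ones in all 3 cohorts.

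**Figure D1:**
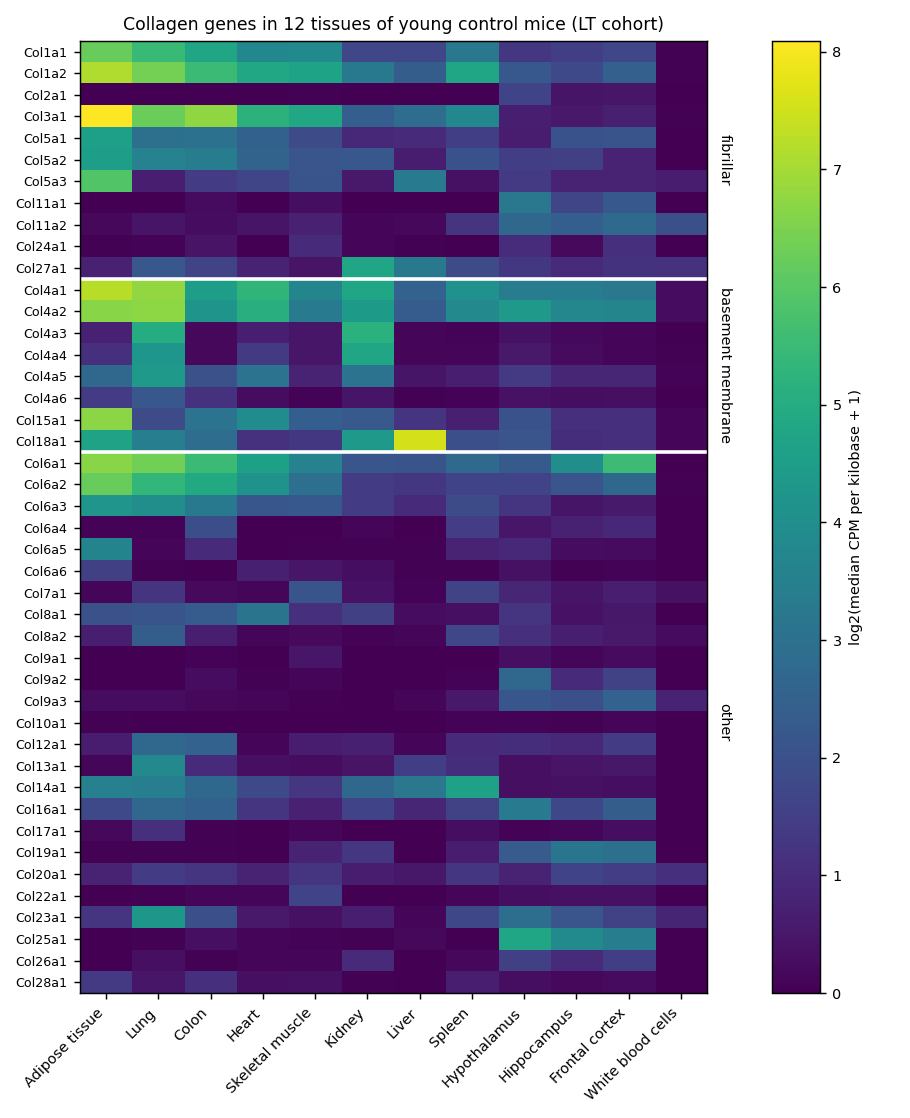
Heat map of the level of each of the 44 collagens (rows, grouped by class) in 12 tissues (columns) of young LT control mice, as log2 of the median CPM per kilobase of the longest annotated transcript plus 1. Col1a2, Col3a1, Col4a1 and Col4a2 are high in adipose tissue and lung, Col18a1 stands out in liver at 191 CPM per kilobase, and Col4a3 and Col4a4 are high in kidney and lung.

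To set levels of different genes side by side, they were divided by the length of each gene's longest annotated transcript. That transcript may not be the one a tissue expresses, so close orders rest on this choice. On this scale Col3a1 led adipose tissue at a median of 272 CPM per kilobase. Col3a1 codes for the single chain of the type III fibril of skin, vessels and soft organs. Next in adipose tissue came Col4a1, a chain of the general basement membrane network, at 149, and Col1a2, a chain of type I fibrils, at 140 CPM per kilobase. Lung was led by Col4a1 at 110, Col4a2 at 103 and Col1a2 at 83.6 CPM per kilobase. Col3a1 also led colon at 106 and muscle at 27.2 CPM per kilobase, and Col4a1 led heart at 38.7 CPM per kilobase. Kidney differed from these tissues in its order, with Col4a3 first at 35, Col27a1 at 26.9 and Col4a4 at 26.8 CPM per kilobase. Spleen was led by Col1a2 at 26.1 and Col14a1 at 23.5 CPM per kilobase. Frontal cortex and hippocampus were led by Col6a1, a chain of the beaded filaments of type VI collagen, at 45.7 and 15 CPM per kilobase. Hypothalamus was led by Col25a1, a membrane-spanning collagen of neurons, at 26.5 CPM per kilobase.

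Several members stood out in 1 or 2 tissues. Col18a1, which gives rise to endostatin, had a median of 1070 CPM in young liver (398 to 1323) and of 136 CPM in adipose tissue (88.2 to 247), so the tissues did not overlap. Per kilobase it stood at 191 in liver, where the next member, Col5a3, stood at 8.86. Col4a3 and Col4a4 code for chains of the specialised network of glomerular and alveolar basement membranes. Col4a3 had a median of 299 CPM in kidney (214 to 356) and 265 CPM in lung (205 to 316), which overlapped, against 5.69 CPM in adipose tissue. Col4a4 had 271 CPM in kidney (227 to 306) and 183 CPM in lung (146 to 196), which did not overlap. Col4a5, the partner of both, was higher in lung, at 129 CPM (117 to 148), than in kidney, at 49.1 CPM. The membrane-spanning collagens Col13a1, at 40.7 CPM (31.6 to 52.8), and Col23a1, at 105 CPM (88.4 to 119), were also highest in lung.

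Col14a1, which binds the surface of fibrils, was highest in spleen at 152 CPM (112 to 230), and adipose tissue followed at 68.5 CPM (44 to 90.5). Col22a1, a collagen of the muscle and tendon junction, was highest in muscle at 18.5 CPM (6.02 to 21.9). Col25a1 had 177 CPM in hypothalamus (151 to 220) and 89.3 CPM in hippocampus (69.9 to 100). Col2a1 and Col9a2, best known from cartilage, also had their highest medians in hypothalamus, 10.6 CPM (4.13 to 14.9) and 16.4 CPM (10.7 to 34.9). Col15a1, a basement membrane proteoglycan, had 530 CPM in adipose tissue (177 to 1032) and 71.6 CPM in heart (40.8 to 141). In bulk tissue, fewer cells of a type and less RNA per cell cannot be told apart, which holds for every level and difference given here.

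The members called in each of the 9 comparisons were unevenly spread over tissues. With LT age, 19 member and tissue combinations were higher and 53 lower of 418 tested, against 7.01% and 6.56% of all gene and tissue combinations. With LT exenatide 11 were higher and 5 lower, against 2.63% and 2.29%. With ST age 9 were higher and 21 lower of 242 tested, against 6.82% and 6.74%. ST exenatide gave 9 higher and 18 lower, against 4.08% and 3.91%, and ST rapamycin 15 higher and 25 lower, against 6.72% and 6.5%. The LT age and exenatide comparisons share the LT aged controls, and the ST age, exenatide, rapamycin and knockdown comparisons share the ST aged controls. The interaction test of the exenatide effect with and without the knockdown uses these ST aged controls too. It also shares the mice with the knockdown alone with the knockdown and within-knockdown comparisons, so these results are not independent.

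**Figure D2:**
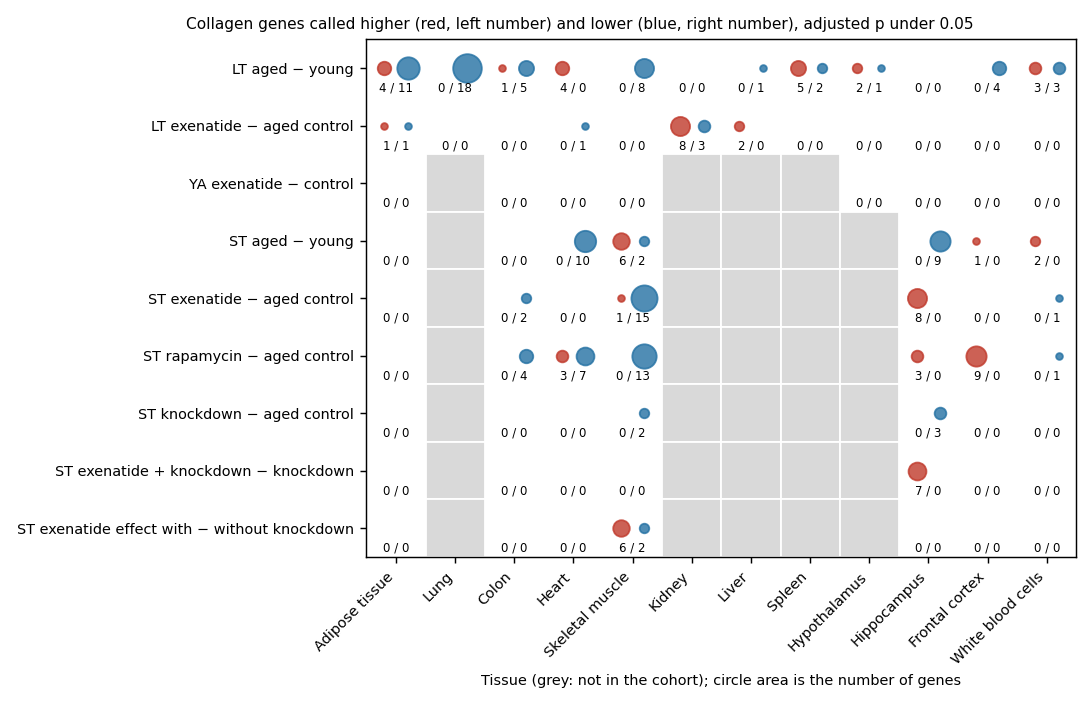
Number of collagens called (adjusted p under 0.05, edgeR) in each of 9 comparisons (rows) and 12 tissues (columns), with higher in red on the left of a cell, lower in blue on the right, and circle area in proportion to the number. Grey cells are tissues that a cohort lacks. The most members lower were 18 in LT lung with age, 15 in ST muscle with exenatide and 13 in ST muscle with rapamycin, and no member was called in the YA cohort.

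In aged LT lungs, 18 of 35 tested collagens were lower than in young lungs and none was higher, against 2.79% of all tested genes lower. The median fold change of the members was −0.55, and 32 of 35 were below 0, against a median of −0.004 over all genes. Lower were 7 of 9 fibrillar, 5 of 8 basement membrane and 6 of 18 other collagens. Collagens took 0.273% ± 0.0592 of counts in aged control lungs (n = 8) and 0.441% ± 0.0742 in young lungs (SD, n = 8).

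Col1a1, the main chain of type I fibrils, had 56.9, 98.2 and 154 CPM in aged control lungs (lowest, median and highest of 8), against 158, 254 and 456 CPM in young lungs. The groups did not overlap, and Col1a1 fell with a fold change of −1.46 ± 0.31 (adjusted p = 0.00597). Its partner chain Col1a2 had 153, 202 and 290 CPM in aged lungs, against 322, 447 and 606 CPM in young lungs, again with no overlap. The fold change of Col1a2 was −1.12 ± 0.19 (adjusted p = 0.00112). Col3a1 had 108, 133 and 188 CPM in aged lungs, against 225, 423 and 695 CPM in young lungs. Every aged control lung was below every young lung for Col3a1 too (fold change −1.57 ± 0.38, adjusted p = 0.0136).

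Col5a2, which sets the width of type I fibrils, fell by 1.11 ± 0.22 on the log2 scale (adjusted p = 0.003). Among the others, Col14a1 had 21.2, 30.2 and 53 CPM in aged lungs, against 44, 64.1 and 84.4 CPM in young lungs, with the highest aged library above the lowest young one. It had the smallest adjusted p of the members (−0.98 ± 0.16, adjusted p = 0.000599). Col6a2, a chain of type VI collagen, had 79.6, 115 and 152 CPM in aged lungs, against 138, 197 and 256 CPM in young lungs (−0.74 ± 0.12, adjusted p = 0.000863). The Col6a1 chain fell alongside (−0.68 ± 0.12, adjusted p = 0.00127).

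The basement membrane genes moved less. Col4a1 had 252, 533 and 631 CPM in aged lungs, against 388, 725 and 805 CPM in young lungs, and Col4a2 had 230, 468 and 587 CPM against 374, 667 and 749 CPM. Both groups overlapped, and the fold changes were −0.53 ± 0.15 for Col4a1 (adjusted p = 0.0372) and −0.56 ± 0.16 for Col4a2 (adjusted p = 0.035). Col4a5 fell by 0.52 ± 0.10 (adjusted p = 0.00339) and Col18a1 by 0.40 ± 0.11 (adjusted p = 0.0319). Col15a1 was not called (−0.60 ± 0.24, adjusted p = 0.14).

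**Figure D3:**
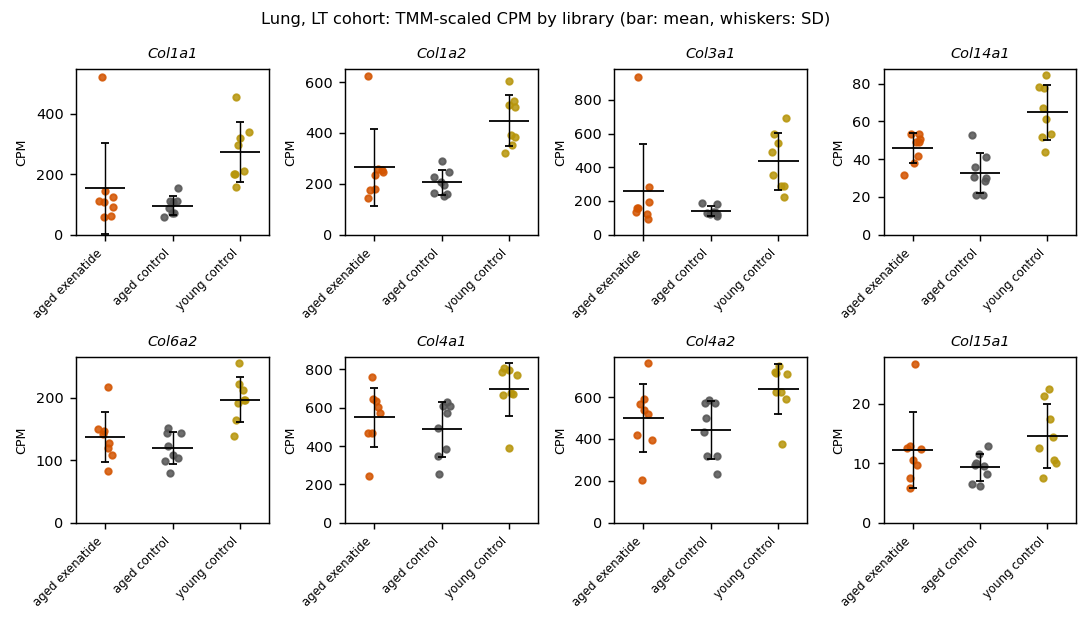
CPM of 8 collagens in each LT lung library (points), by condition from left to right: aged exenatide, aged control and young control (n = 8 each), with the mean as a bar and the SD as whiskers. Aged control lungs lie below young lungs for Col1a1, Col1a2 and Col3a1 without overlap, and 1 aged exenatide lung stands at 522, 625 and 934 CPM for these genes.

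Of the genes that make, process or sense collagen in lung, the folding list had 3 lower and none higher of 18, among them Sparc, a collagen-binding matricellular protein (−0.47), and Fkbp10, an endoplasmic reticulum peptidyl-prolyl isomerase (−0.47). The processing list had 2 lower of 12, Adamts2, which removes the amino-terminal propeptide (−0.70), and Bmp1, which removes the carboxy-terminal one (−0.36). Of 12 breakdown genes Mmp2, a gelatinase, fell (−1.24), as did Mrc2, a receptor for collagen uptake (−0.53), and the neutrophil collagenase Mmp8 rose (1.51). Gp6, the collagen receptor of platelets, rose (1.53). The 4 platelet markers were all higher, with a summed level of 84.8 to 145 CPM in aged and 32.9 to 61.7 CPM in young lungs. Of 8 fibroblast markers 2 were lower, with a summed level of 862 to 1145 CPM in aged and 893 to 1098 CPM in young lungs, none of 6 endothelial markers was called, and 1 of 3 lung epithelium markers was lower. The part of these cell types in the collagen result was not tested. Within sequencing batches the count of lower collagens was 2 in batch 3 (3 aged and 3 young controls) and 8 in the other batch, and it was 10 with a trend on gene length and GC content removed. Of the 18, 12 were called whichever animal was left out, and Col18a1, Col24a1, Col4a1, Col4a2, Col6a3 and Col7a1 were not.

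In aged LT muscle, 8 of 37 tested collagens were lower and none was higher than in young muscle, against 6.17% of all genes lower. The members' median was −0.50, with 33 of 37 below 0, against −0.026 over all genes. Col11a1, a fibrillar chain best known from cartilage, had 0.116, 0.316 and 0.736 CPM in aged control muscle (n = 9), against 0.755, 1.79 and 5.89 CPM in young muscle (n = 6). The groups did not overlap (−2.73 ± 0.50, adjusted p = 0.00208), but the aged level was below 1 CPM throughout. Col1a1 had 16.3, 41.8 and 57.9 CPM in aged muscle, against 44.2, 81.8 and 123 CPM in young muscle (−1.41 ± 0.35, adjusted p = 0.017). Col3a1 had 35.5, 74.4 and 134 CPM in aged muscle, against 112, 151 and 222 CPM in young muscle (−1.14 ± 0.34, adjusted p = 0.0342). Both sets of libraries overlapped at their ends.

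Col12a1, a fibril-associated collagen of tendon and muscle sheaths, had 1.43, 2.41 and 3.86 CPM in aged muscle, against 2.95, 6.5 and 16.5 CPM in young muscle (−1.53 ± 0.34, adjusted p = 0.00764). Col9a1, a fibril-associated chain of cartilage, fell by 2.12 ± 0.41 (adjusted p = 0.00285), Col28a1, a collagen of peripheral nerve, by 1.67 ± 0.35 (adjusted p = 0.0047) and Col1a2 by 1.10 ± 0.27 (adjusted p = 0.0136). Col4a1 (−0.54 ± 0.28, adjusted p = 0.2), Col4a2 (−0.47 ± 0.23, adjusted p = 0.17), Col6a1, Col15a1 and Col18a1 were not called. Of 6 tendon and cartilage markers 3 were lower, with summed levels of 21.1 to 51 CPM in aged and 18.6 to 242 CPM in young muscle, and of 6 endothelial markers 3 were lower. Of 8 fibroblast markers 1 was higher and 1 lower, and 2 of 5 macrophage markers were higher. Their part in the collagen result was not tested. Of the folding list, Sparc (−0.63) and Colgalt2 (−0.55) fell and P4ha2 (0.42), a prolyl hydroxylase subunit, and P4hb (0.32) rose. Batch 3, with 4 aged and 1 young control, gave 0 collagens lower, and the other batch alone gave 17.

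Aged LT adipose tissue differed from young adipose tissue in about as large a share of collagens as of all genes: 4 of 34 were higher and 11 lower, or 15 in all, against 26.1% of all genes higher and 24.7% lower. The classes differed in direction. Of the 8 basement membrane members 6 were lower and none higher, with a median of −1.06, and of the 9 fibrillar members 2 were lower and 2 higher. Col4a3 had 1.16, 1.81 and 3.81 CPM in aged control adipose tissue (n = 9), against 3.42, 5.69 and 18.4 CPM in young tissue (n = 8), with 1 aged library inside the young range (−2.02 ± 0.34, adjusted p = 9.25e-05). Col4a1 had 323, 600 and 893 CPM in aged tissue, against 712, 985 and 1483 CPM in young tissue (−0.73 ± 0.23, adjusted p = 0.013). Col4a2 fell with it (−0.74 ± 0.24, adjusted p = 0.0157), as did Col4a4 (−1.75 ± 0.40, adjusted p = 0.00109), Col4a5 (−1.37 ± 0.32, adjusted p = 0.00148) and Col4a6 (−1.75 ± 0.44, adjusted p = 0.00232).

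Col17a1, a membrane-spanning collagen of hemidesmosomes, fell by 1.87 ± 0.39 (adjusted p = 0.000554). The members that rose were of low level: Col24a1, a fibrillar collagen of bone, had 0.506, 1.18 and 4.05 CPM in aged adipose tissue, against 0.0746, 0.275 and 1.08 CPM in young tissue (1.97 ± 0.56, adjusted p = 0.00606). Col11a2 (1.22 ± 0.29, adjusted p = 0.00161), Col20a1 (0.54 ± 0.14, adjusted p = 0.00348) and Col9a3 rose too. The main fibrillar genes were not called, with −0.07 for Col1a1 (adjusted p = 0.85), −0.16 for Col1a2 (adjusted p = 0.55) and −0.44 for Col3a1 (adjusted p = 0.13).

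Other cell-type markers also moved in aged adipose tissue. All 6 endothelial markers were lower, with a summed level of 256 to 682 CPM in aged and 751 to 920 CPM in young tissue, as were 6 of 7 smooth muscle markers and all 4 adipocyte markers (1552 to 6974 CPM in aged and 7601 to 15486 CPM in young tissue). All 5 macrophage markers were higher (3632 to 9257 CPM in aged and 1072 to 4032 CPM in young tissue), as were all 3 B cell markers (38.1 to 948 CPM in aged and 1.3 to 107 CPM in young tissue), and all 4 erythroid markers were lower (31.2 to 147 CPM in aged and 93.9 to 626 CPM in young tissue). The part of these shifts in the collagen result was not tested. Of 12 breakdown genes 6 rose and none fell, with Mmp3 at 2.03, the collagenase Mmp13 at 1.99, Mrc2 at 0.77 and Mmp14, a membrane-bound collagenase, at 0.76. The folding list had 6 lower and 2 higher of 17, with Sparc at −0.95 and Colgalt2, a collagen galactosyltransferase, at −1.45. Batch 3 alone gave 2 collagens lower and 0 higher, and the other batch alone 7 lower and 3 higher.

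In the other LT tissues age was called in 7 or fewer collagens. Frontal cortex had 4 of 43 lower and none higher, against 2.8% of all genes lower. Col1a1 there had 4.58, 7.17 and 11 CPM in aged controls (n = 8), against 9.59, 13.8 and 22.7 CPM in young controls (n = 8), with a small overlap (−0.98 ± 0.17, adjusted p = 0.0012). Col1a2 (−0.67 ± 0.16, adjusted p = 0.0138), Col3a1 (−1.10 ± 0.33, adjusted p = 0.0447) and Col4a5 (−0.54 ± 0.15, adjusted p = 0.029) fell too, and 3 smooth muscle and 2 endothelial markers were lower, whose part in the result was not tested. Col4a1, Col4a2, Col6a1, Col15a1 and Col18a1 were not called. Leaving out either of 2 aged controls (B24 or B37) or of 4 young controls (A51, A52, A54 or A57) left 2 calls, Col1a1 and Col1a2.

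Spleen went the other way for a basement membrane gene, with 5 of 36 higher and 2 lower, against 6.94% and 4.27% of all genes. Col15a1 had 4.03, 5.53 and 7.91 CPM in aged control spleens (n = 9), against 2.14, 3.26 and 5.31 CPM in young spleens (n = 8), which overlapped (0.83 ± 0.18, adjusted p = 0.00568). Col4a6, Col6a6, Col20a1 and Col16a1 were higher as well, and Col19a1 (−0.99 ± 0.30) and Col3a1 (−0.73 ± 0.23, adjusted p = 0.041) lower. No call of higher collagens was made within either batch of spleens, and the count of higher members was 2 or 3 without any of 8 single animals (B27, B34, B37, B41, A51, A53, A54 or A56). Of the markers in spleen 2 of 8 fibroblast and 2 of 6 endothelial ones were higher, with their part in the result not tested. In heart 4 of 32 were higher and none lower, against 8.06% of all genes higher. Col11a2 led, with 2.38, 4.46 and 9.55 CPM in aged controls (n = 9) and 0.843, 2.24 and 3.53 CPM in young controls (n = 8), an overlap of ranges (0.99 ± 0.21, adjusted p = 0.0024), followed by Col23a1, Col20a1 and Col4a6. Of 7 smooth muscle markers in heart 2 were higher, and 1 of 8 fibroblast and 1 of 6 endothelial markers were lower, with their part in the result not tested.

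Colon had 1 higher of 37, Col6a5, and 5 lower, among them Col14a1 (−0.93 ± 0.20, adjusted p = 0.00658) and the partners Col4a3 and Col4a4, against 6.01% of all genes higher and 8.41% lower. Without young replicate A53 the count of lower members was 3. Hepatocyte markers were lower for 2 of 3 in colon (1.22 to 29.2 CPM in aged and 4.81 to 6285 CPM in young controls), and 2 endothelial, 2 leukocyte and 2 adipocyte markers were lower, with their part in the result not tested. White blood cells had 3 higher and 3 lower of 15, against 15.7% and 12% of all genes. Collagens took a mean of 0.00451% of counts in aged and 0.00581% in young white blood cells. In the same cells 4 of 4 platelet markers were higher (4338 to 14072 CPM in aged and 1660 to 4423 CPM in young controls) and 3 of 3 B cell markers lower, with their part in the result not tested. Hypothalamus had 2 of 42 higher, Col5a3 (0.40 ± 0.10) and Col7a1 (0.51 ± 0.16), and Col9a1 lower (−0.57 ± 0.17), against 3.12% and 3.97% of all genes. Of 5 choroid plexus markers there 2 were higher (40.7 to 7473 CPM in aged and 34.7 to 56.5 CPM in young controls), with their part in the result not tested. Liver had only Col8a1 lower (−1.43 ± 0.37, adjusted p = 0.0289) of 30, against 2.14% of all genes lower. Kidney and hippocampus had no collagen called of 34 and 43 with edgeR, against 7.45% and 0.403% of all genes called, with 2 and 3 at an unadjusted p under 0.05 and 3 and 0 by DESeq2.

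LT exenatide was compared with aged controls. Kidney held most of its collagen calls: 8 of 34 tested members were higher and 3 lower in treated aged kidneys, against 8.25% and 5.97% of all genes. The members' median was 0.32, with 24 of 34 above 0, against 0.023 over all genes. Collagens took 0.164% ± 0.0198 of counts in treated kidneys (n = 8) and 0.148% ± 0.0148 in aged control kidneys (SD, n = 9).

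Both chains of the general collagen IV network were higher in treated kidneys, and 2 of the 3 chains of the glomerular network were lower. Col4a2, a chain of the general basement membrane, had 135, 168 and 174 CPM in treated kidneys (n = 8), against 103, 114 and 158 CPM in aged controls (n = 9), with some overlap (0.40 ± 0.08, adjusted p = 0.00459). Its partner Col4a1 had 160, 209 and 232 CPM in treated kidneys, against 126, 155 and 198 CPM in aged controls (0.35 ± 0.09, adjusted p = 0.0133). Of the glomerular network, Col4a3 had 123, 191 and 251 CPM in treated kidneys, against 225, 270 and 359 CPM in aged controls, with some overlap (−0.55 ± 0.13, adjusted p = 0.00847). Col4a5 had 30.9, 34.7 and 46.4 CPM in treated kidneys, against 34.9, 41.9 and 51.7 CPM in aged controls (−0.25 ± 0.07, adjusted p = 0.0252). Col4a4, the other partner, was not called (−0.29 ± 0.11, adjusted p = 0.0604). Of 4 podocyte markers, from the cells that make this network, 2 were higher, Podxl (0.36) and Nphs1 (0.30), with a summed level of 323 to 558 CPM in treated and 267 to 402 CPM in aged control kidneys. In the comparison of these aged controls with young kidneys none of the 5 collagens was called.

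Col18a1, of the tubular and vascular basement membrane, had 126, 159 and 188 CPM in treated kidneys, against 103, 124 and 160 CPM in aged controls (0.32 ± 0.11, adjusted p = 0.0476). This call was lost with a trend on gene length and GC content removed, where the value was −0.001. Col13a1, a membrane-spanning collagen, had 1.57, 2.51 and 4.71 CPM in treated kidneys, against 0.236, 0.992 and 1.75 CPM in aged controls (1.34 ± 0.31, adjusted p = 0.00834), with little overlap. Col8a1, a short-chain collagen of vessel walls, had 12.4, 16.1 and 54.8 CPM against 9.05, 10.5 and 14.8 CPM in aged controls (1.03 ± 0.26, adjusted p = 0.0141). Col19a1, a rare fibril-associated collagen, moved opposite, with 0.786, 2.42 and 6.04 CPM in treated kidneys and 4.94, 7.06 and 11.1 CPM in aged controls (−1.36 ± 0.28, adjusted p = 0.00424).

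The type VI chains rose as a pair, with Col6a1 at 10.6, 20.6 and 46.2 CPM in treated kidneys and 11.8, 14.1 and 17.3 CPM in aged controls (0.80 ± 0.23, adjusted p = 0.0252) and Col6a2 at a fold change of 0.79 ± 0.22 (adjusted p = 0.0229). The treated kidneys were more spread than the controls for Col6a1, and the ranges overlapped. Of the fibrillar members only Col5a1 was called (0.67 ± 0.21, adjusted p = 0.0333). Col1a1 (0.69, adjusted p = 0.15), Col1a2 (0.56, adjusted p = 0.073), Col3a1 (0.50, adjusted p = 0.28) and Col15a1 (0.33, adjusted p = 0.35) were not.

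**Figure D4:**
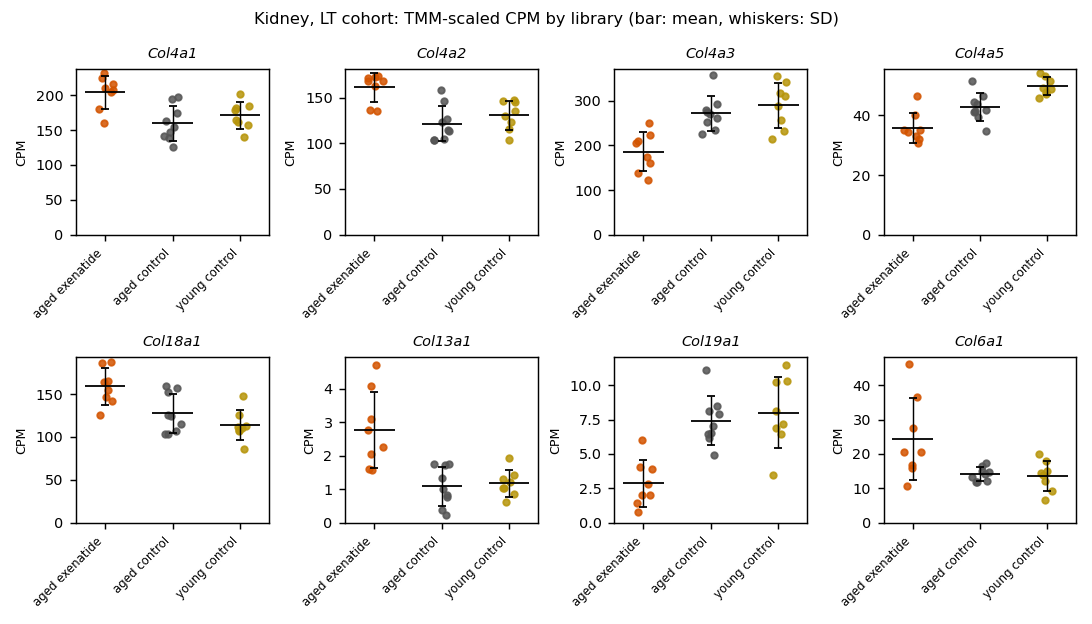
CPM of 8 collagens in each LT kidney library (points), by condition from left to right: aged exenatide (n = 8), aged control (n = 9) and young control (n = 8), with the mean as a bar and the SD as whiskers. Treated kidneys are higher for Col4a1, Col4a2, Col18a1, Col13a1 and Col6a1 and lower for Col4a3, Col4a5 and Col19a1, with ranges that overlap.

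The genes around collagen were also called mostly upwards in treated kidneys. The processing list had 4 higher and none lower of 12, with the cross-linking enzymes Loxl1 (1.02) and Lox (0.94) and the proteases Adamts14 (0.73) and Bmp1 (0.53). The breakdown list had 4 higher of 9, with Mmp9 at 1.08 and Mmp14 at 0.75, and the signalling list 5 higher of 10, with Tgfb1 at 0.98 ± 0.16 and its target Ccn2 at 0.82. The folding list had 6 higher and 2 lower of 17, and the receptor list none of 8. Of 7 smooth muscle and pericyte markers 6 were higher, with a summed level of 187 to 327 CPM in treated and 121 to 210 CPM in aged control kidneys, as were 4 of 6 endothelial markers (298 to 487 CPM in treated and 249 to 335 CPM in aged control kidneys) and 3 of 8 fibroblast markers (161 to 414 CPM in treated and 141 to 262 CPM in aged control kidneys). All 4 erythroid markers were higher, at 2.78 to 3.04 on the log2 scale, with 83.5 to 1051 CPM in treated and 25.5 to 136 CPM in aged control kidneys. The platelet gene Pf4 (1.08) and the leukocyte gene Itgam (0.57) were higher and Umod, of the kidney tubule, was lower (−0.43). Their part in the collagen result was not tested. The count of higher members was 4 without exenatide replicate B30, 5 without exenatide replicate B28 or aged control B15, 3 with the length and GC trend removed, 2 in batch 3 alone and 1 in the other batch. Col4a1, Col4a2, Col8a1, Col13a1 and the 3 lower members were called whichever animal was left out. With the length and GC trend removed, Col4a1 (0.12, adjusted p = 0.311) and Col4a2 (0.08, adjusted p = 0.479) were no longer called by edgeR. Col6a1 (0.60, adjusted p = 0.109), Col6a2 (0.63, adjusted p = 0.0785) and Col5a1 (0.44, adjusted p = 0.195) were lost as well. Col13a1 (adjusted p = 0.0185) and Col8a1 (adjusted p = 0.0178) were still called, and the third member counted there was not among those called in the main fit.

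Liver had 2 of 30 collagens higher with LT exenatide and none lower, against 0.591% of all genes higher. Col5a2 had 1.94, 10.1 and 153 CPM in treated livers (n = 8), against 1.68, 2.98 and 5.5 CPM in aged controls (n = 9), a wide spread in the treated group (3.77 ± 0.67, adjusted p = 0.00402). Col8a1 had 0.342, 1.08 and 3.2 CPM in treated livers, against 0.158, 0.274 and 0.751 CPM in aged controls (1.94 ± 0.37, adjusted p = 0.00684). Both were called whichever animal was left out. Col18a1, the leading liver collagen, had 545, 925 and 1138 CPM in treated and 565, 903 and 1376 CPM in aged control livers, a full overlap. Of 6 smooth muscle markers 2 were higher, with summed levels of 63 to 165 CPM in treated and 39.2 to 68.6 CPM in aged control livers. Of 7 tested fibroblast markers Pi16 was higher (1.75 ± 0.33, adjusted p = 0.00605), with summed levels of 153 to 472 CPM in treated and 123 to 299 CPM in aged control livers. The part of either list in the result was not tested.

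In LT adipose tissue, where 10.2% of all genes were higher and 8.68% lower with exenatide, Col3a1 was lower at 201, 629 and 1304 CPM in treated and 788, 1017 and 1600 CPM in aged control tissue (−0.72 ± 0.24, adjusted p = 0.0398), and Col17a1 was higher (1.12 ± 0.40, adjusted p = 0.0495). In the same tissue 3 of 4 adipocyte markers were higher (5356 to 22390 CPM in treated and 1552 to 6974 CPM in aged controls), as were all 4 erythroid markers (72.6 to 471 CPM in treated and 31.2 to 147 CPM in aged controls), the smooth muscle gene Tagln (1.22), the endothelial gene Egfl7 (0.84) and the mesothelial gene Msln (1.33), with their part in the result not tested. In heart, where 1.34% of all genes were lower, Col11a2 was lower at 1.58, 2.47 and 4.26 CPM in treated and 2.38, 4.46 and 9.55 CPM in aged control tissue (−0.72 ± 0.21, adjusted p = 0.0491), and the tendon marker Scx was lower too (−0.76). Of 25 animals left out in turn, 18 ended the adipose Col17a1 call, 9 the adipose Col3a1 call and 16 the heart Col11a2 call. With the length and GC trend removed, edgeR called none of these (adjusted p = 0.159, 0.0662 and 0.156). No collagen was called in the other 8 tissues with edgeR, with between 1 and 15 members at an unadjusted p under 0.05 in each and between 0 and 5 called by DESeq2. Of all genes, 12.1% were called in colon, 6.2% in hypothalamus, 0.875% in white blood cells, 0.609% in lung, 0.21% in muscle, 0.0961% in frontal cortex, 0.00588% in spleen and 0% in hippocampus. In lung Col1a1 had 58.8, 110 and 522 CPM in treated aged mice and 56.9, 98.2 and 154 CPM in aged controls (0.55 ± 0.31, adjusted p = 0.359). In muscle Col1a1 had 4.44, 17.5 and 34.6 CPM in treated and 16.3, 41.8 and 57.9 CPM in aged control mice (−0.86 ± 0.33, adjusted p = 0.264), and Col3a1 had 7.64, 29 and 50 CPM in treated and 35.5, 74.4 and 134 CPM in aged control mice (−1.25 ± 0.32, adjusted p = 0.0846).

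Exenatide in young adult mice (YA) gave no collagen call in any of 8 tissues with edgeR, of 269 member and tissue combinations, with 9 at an unadjusted p under 0.05 and 0 by DESeq2. Of all gene and tissue combinations 0.305% were higher and 0.361% lower, nearly all in colon, where 4.87% of genes were called, against 0.0136% in heart and 0% in the other 6 tissues. Collagens took 0.701% of counts in treated and 0.657% in control adipose tissue, and 0.193% in treated and 0.186% in control heart. In colon, the smallest adjusted p was that of Col6a4, a chain of the type VI family (−0.35 ± 0.15, adjusted p = 0.202).

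ST age was compared within the second set of aged and young controls. In heart, 10 of 33 tested collagens were lower and none higher in aged mice, against 13.1% of all genes lower, and the members' median was −0.36, against 0.019 over all genes. Lower were 4 of 8 fibrillar, 4 of 8 basement membrane and 2 of 17 other collagens. Col1a1 had 69.6, 86.3, 46.2, 58.5 and 109 CPM in aged control hearts, against 170, 104, 114, 226 and 100 CPM in young hearts, where only the highest aged heart lay inside the young range (−0.95 ± 0.29, adjusted p = 0.0221). Col4a2 had 156, 210, 102, 126 and 325 CPM in aged hearts, against 408, 309, 427, 468 and 260 CPM in young hearts (−1.03 ± 0.31, adjusted p = 0.0203), with 1 aged heart in the young range. Col15a1 had 108, 81, 75, 62.8 and 120 CPM in aged hearts, against 196, 141, 162, 224 and 126 CPM in young hearts, without overlap (−0.93 ± 0.23, adjusted p = 0.0082).

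Col4a1 (−0.84 ± 0.26, adjusted p = 0.021), Col18a1 (−0.89 ± 0.26, adjusted p = 0.0183), Col1a2 (−0.47 ± 0.17, adjusted p = 0.0378), Col6a1 (−0.47 ± 0.15, adjusted p = 0.0246), Col5a1, Col6a2 and Col11a2 fell as well. Col3a1 had 320, 352, 259, 369 and 312 CPM in aged hearts, against 341, 320, 339, 352 and 323 CPM in young hearts, and was not called (−0.06 ± 0.21, adjusted p = 0.87). The folding list had 5 lower of 17, with Fkbp10 at −0.68 and Sparc at −0.43, and 1 higher, while 3 of 10 signalling genes rose, with Postn, a matricellular protein of activated fibroblasts, at 1.08. Of 8 fibroblast markers 5 were higher, with a summed level of 1738 to 3543 CPM in aged and 1432 to 1753 CPM in young hearts, and 2 of 6 endothelial and 2 of 7 smooth muscle markers were lower. All 5 macrophage markers were higher, 497 to 1404 CPM in aged and 325 to 433 CPM in young hearts, and the part of any of these in the collagen result was not tested. The count of lower members was 3 without young replicate A46, 5 without aged E29 or E30, 6 without young A42 and 3 with the length and GC trend removed, and Col15a1 and Col5a1 were called whichever animal was left out.

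In aged ST hippocampus 9 of 42 collagens were lower and none higher, against 14.1% of all genes lower. Col7a1, the anchoring fibril collagen, had 3.56, 3.45, 3.35, 3.83 and 4.05 CPM in aged controls, against 5.14, 5.35, 5.89, 6.73 and 6.41 CPM in young controls, without overlap (−0.69 ± 0.11, adjusted p = 2.53e-05). Col4a2 had 85.5, 93.2, 61.2, 96.7 and 93.9 CPM in aged controls, against 101, 122, 113, 120 and 95.4 CPM in young controls, with 1 aged value inside the young range (−0.36 ± 0.09, adjusted p = 0.00278). Col1a1, Col1a2, Col3a1, Col4a1, Col6a1, Col15a1 and Col18a1 were not called.

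The largest fold changes in hippocampus rested on 1 or 2 young libraries. Col9a3 had 10.6, 7.11, 8.39, 10 and 12.2 CPM in aged controls, against 16.1, 13.2, 15.8, 53.4 and 155 CPM in young controls (−2.38 ± 0.47, adjusted p = 0.000554). Col8a1 had 1.01, 0.948, 1.28, 3.74 and 0.59 CPM in aged controls, against 0.752, 0.786, 1.34, 20 and 62.5 CPM in young controls (−3.49 ± 0.91, adjusted p = 0.00606). The same 2 young libraries were the high ones for both genes. Without young replicate A47 the values were −1.35 for Col9a3, still called, and −1.95 for Col8a1 (adjusted p = 0.0656), −1.05 for Col8a2, −0.72 for Col4a3 (adjusted p = 0.248) and −0.41 for Col4a4 (adjusted p = 0.341), which were not. All 5 choroid plexus markers were lower with age, with a summed level of 52.2 to 395 CPM in aged and 67.6 to 11788 CPM in young hippocampus. The choroid plexus lies beside the hippocampus, and the part of its tissue in these values was not tested. Of 5 macrophage markers 4 were higher (154 to 225 CPM in aged and 116 to 134 CPM in young hippocampus), with their part not tested either. Col7a1, Col4a2, Col20a1 and Col9a3 were called whichever animal was left out.

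Aged ST muscle had 6 of 36 collagens higher and 2 lower than young muscle, against 9.23% and 9.24% of all genes, so that the share called in all was near that of all genes. Col22a1 had 20.8, 16.6, 23.5, 23.2 and 23.9 CPM in aged controls, against 8.27, 12, 9.44, 13.8 and 13.4 CPM in young controls, without overlap (0.93 ± 0.21, adjusted p = 0.00346). Col11a2 (1.67 ± 0.31, adjusted p = 0.000637), Col13a1 (1.58 ± 0.49, adjusted p = 0.0234), Col4a2 (0.84 ± 0.28, adjusted p = 0.0373), Col6a5 and Col20a1 rose, and Col4a3 (−0.77 ± 0.23, adjusted p = 0.0186) and Col4a4 (−0.75 ± 0.23, adjusted p = 0.0205) fell. Col1a1 had 74.7, 55.8, 50.4, 54.8 and 72.8 CPM in aged controls, against 52.5, 51, 38.6, 90.8 and 37.4 CPM in young controls, and was not called, nor was Col3a1 (−0.64, adjusted p = 0.11). The LT muscle gave 8 lower and none higher, but the cohorts were not compared in 1 test. All 6 endothelial markers were higher in aged muscle (169 to 223 CPM, against 71.8 to 115 CPM in young muscle), and 6 of 8 fibroblast markers were lower (377 to 487 CPM, against 578 to 1026 CPM), and 4 of 7 smooth muscle markers were higher (246 to 428 CPM, against 219 to 308 CPM), with their part in the result not tested. The count of higher members was 2 without young A42 or A45, 3 without aged E13 or young A44 or A47, and 2 with the length and GC trend removed.

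In other ST tissues, aged white blood cells had Col11a2 (0.98 ± 0.30, adjusted p = 0.0193) and Col18a1 (2.87 ± 1.04, adjusted p = 0.0458) higher of 15, against 12.6% of all genes higher. Frontal cortex had Col19a1 higher (0.45 ± 0.12, adjusted p = 0.0257) of 43, against 4.3% of all genes higher. In colon and adipose tissue edgeR called no collagen of 38 and 35, against 0.0221% and 0% of all genes, with 3 and 2 at an unadjusted p under 0.05 and 0 by DESeq2.

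In the ST cohort, exenatide-treated aged muscle had lower collagen levels than aged control muscle. Of 36 tested members 15 were lower and 1 higher, against 9.05% and 9.34% of all genes, with a median of −0.57 for the members and 0.015 over all genes. Lower were 6 of 10 fibrillar, 3 of 8 basement membrane and 6 of 18 other collagens. Collagens took 0.059% ± 0.00769 of counts in treated muscle and 0.0925% ± 0.0173 in aged control muscle (SD, n = 5 each).

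Col1a1 had 31.8, 24.9, 28.8, 29.8 and 19.4 CPM in exenatide-treated aged muscle, against 74.7, 55.8, 50.4, 54.8 and 72.8 CPM in aged controls. The groups did not overlap (−1.20 ± 0.33, adjusted p = 0.0126). Col4a2 had 34, 31, 51.7, 36.3 and 36.5 CPM in treated muscle, against 106, 74.1, 61, 72.1 and 112 CPM in aged controls, again without overlap (−1.17 ± 0.29, adjusted p = 0.00553). Col22a1 had 7.02, 8.02, 13.2, 9.52 and 8.34 CPM in treated muscle, against 20.8, 16.6, 23.5, 23.2 and 23.9 CPM in aged controls (−1.23 ± 0.21, adjusted p = 0.000437), and every treated library was below every control.

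The short-chain collagen Col8a2 had 0.254, 0.409, 0.253, 0.225 and 0.237 CPM in treated muscle, against 1.36, 1.33, 0.87, 1.14 and 1.43 CPM in aged controls, a low level without overlap (−2.13 ± 0.47, adjusted p = 0.00274). Col11a1 had 0.0846, 0.223, 0.127, 0.262 and 0 CPM in treated muscle, against 1.53, 0.703, 0.643, 1.18 and 0.263 CPM in aged controls (−2.59 ± 0.74, adjusted p = 0.0151). Col12a1 had 1.52, 2.64, 2.15, 3.9 and 2.13 CPM in treated muscle, against 6.77, 5.96, 5.68, 5.23 and 4.48 CPM in aged controls (−1.18 ± 0.38, adjusted p = 0.0316). For these as well no treated library reached the lowest control.

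Col3a1 (−0.92 ± 0.28, adjusted p = 0.022), Col1a2 (−0.71 ± 0.25, adjusted p = 0.0459), Col4a1 (−0.94 ± 0.29, adjusted p = 0.0257), Col15a1 (−0.92 ± 0.31, adjusted p = 0.0401), Col6a3 (−1.07 ± 0.29, adjusted p = 0.0119) and Col20a1 (−0.53 ± 0.12, adjusted p = 0.00366) fell too. Col4a4 was the member that rose (0.77 ± 0.23, adjusted p = 0.0181), and Col18a1 (−0.43, adjusted p = 0.32) and Col6a1 (−0.47, adjusted p = 0.13) were not called. Of the folding list Serpinh1, the collagen-specific chaperone (−0.69), and the lysyl hydroxylase Plod1 (−0.36) fell, and none of 17 rose. Loxl2, a cross-linking enzyme (−0.74), Itga10, a collagen-binding integrin chain (−1.36), and Ccn2 (−1.64) fell, and Fap, a fibroblast protease, rose (0.75).

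**Figure D5:**
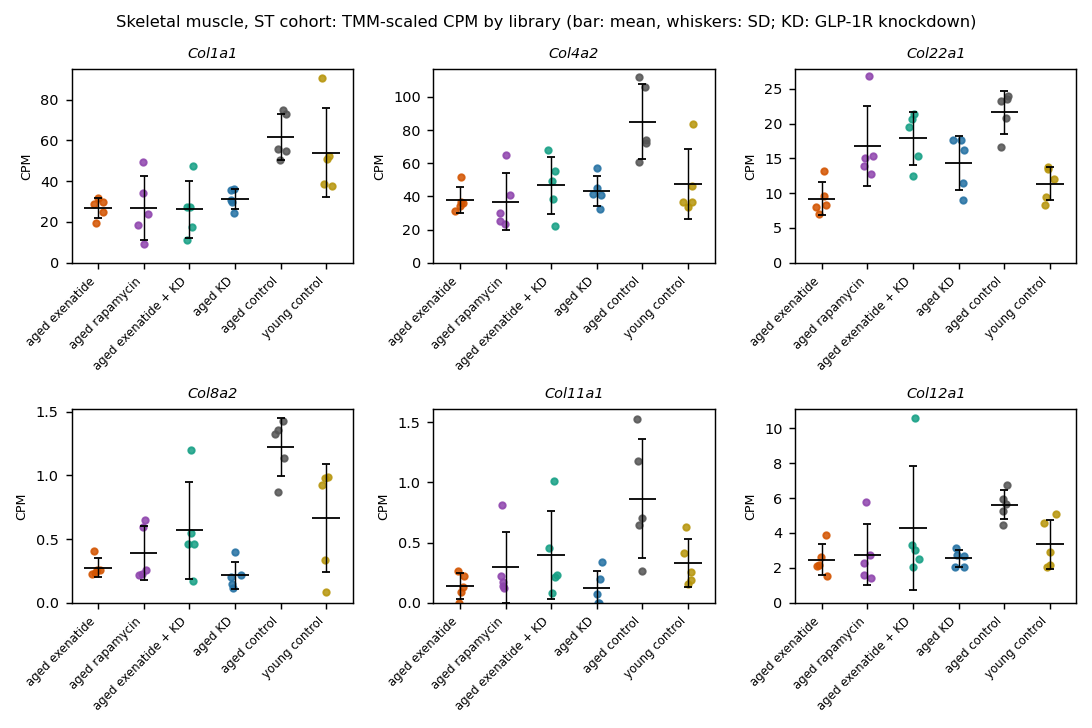
CPM of 6 collagens in each ST muscle library (points), by condition from left to right: aged exenatide, aged rapamycin, aged exenatide with knockdown, aged knockdown, aged control and young control (n = 5 each), with the mean as a bar and the SD as whiskers. Exenatide-treated muscle lies below aged controls for all 6 genes without overlap.

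All 6 endothelial markers were lower in treated muscle (54.3 to 114 CPM, against 169 to 223 CPM in aged controls), as were 4 of 7 smooth muscle markers (173 to 253 CPM, against 246 to 428 CPM) and 4 of 6 tendon and cartilage markers (11 to 13.1 CPM, against 42.1 to 62.7 CPM). Of 8 fibroblast markers 4 were higher, with 490 to 932 CPM in treated and 377 to 487 CPM in aged control muscle. Their part in the collagen result was not tested. The count of lower members was 8 without exenatide replicate E25 and 6 with the length and GC trend removed. Col1a1, Col4a2, Col22a1, Col8a2, Col11a1 and Col20a1 were called whichever animal was left out.

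In hippocampus of exenatide-treated ST mice 8 of 42 collagens were higher and none lower than in aged controls, against 14.1% of all genes higher. Col16a1, a fibril-associated collagen, had 19.5, 15.3, 16.6, 21.7 and 24.1 CPM in treated mice, against 12.6, 13.2, 9.78, 12.8 and 11.4 CPM in aged controls, without overlap (0.70 ± 0.13, adjusted p = 0.000158). Col7a1 had 5.91, 5.07, 5.37, 5.67 and 5.09 CPM in treated mice, against 3.56, 3.45, 3.35, 3.83 and 4.05 CPM in aged controls, also without overlap (0.57 ± 0.11, adjusted p = 0.000247). Col4a2 had 116, 108, 98.1, 111 and 112 CPM in treated mice, against 85.5, 93.2, 61.2, 96.7 and 93.9 CPM in aged controls, again without overlap (0.34 ± 0.09, adjusted p = 0.00345). Col5a3 (0.79 ± 0.16, adjusted p = 0.000306), Col11a2 (0.63 ± 0.14, adjusted p = 0.00138), Col9a2 (1.14 ± 0.34, adjusted p = 0.0113), Col22a1 and Col13a1 rose, and the other main members were not called. No choroid plexus or fibroblast marker was called. The endothelial gene Egfl7 (0.54, adjusted p = 4.53e-05) and the neuronal gene Rbfox3 (0.29) were higher. The pericyte gene Rgs5 (−0.38) and the macrophage gene Adgre1 (−0.39) were lower. Of the tissue markers, Pomc of hypothalamus (adjusted p = 0.00525) and Epcam of colon epithelium (1.21) were higher. Tbr1 of frontal cortex (−0.48) and Prox1 of hippocampus (−0.36) were lower. Each was the 1 called member of its list, and their part in the result was not tested. In the folding list Sparc (0.23), Ppib and P4ha2 rose and P4ha1 fell (−0.48), and Tgfbr1, a TGF-beta receptor, fell (−0.48).

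Colon had 2 of 38 lower with ST exenatide, against 0.0386% of all genes lower. Col6a2 had 108, 92.4, 68.2, 98.5 and 77.1 CPM in treated colon, against 159, 148, 156, 167 and 126 CPM in aged controls (−0.77 ± 0.14, adjusted p = 0.0173). Col15a1 had 32.1, 24.1, 14.6, 29.6 and 25.7 CPM in treated colon, against 50.3, 40.5, 47, 55.1 and 37.2 CPM in aged controls (−0.87 ± 0.18, adjusted p = 0.0332). Of 8 fibroblast markers Fbln1 was lower (−0.71), with summed levels of 658 to 754 CPM in treated and 736 to 794 CPM in aged control colon, with their part in the result not tested. Neither collagen overlapped between the groups, and 14 of the 38 members had an unadjusted p under 0.05 and 10 were called by DESeq2. In white blood cells Col11a2 was lower (−1.13 ± 0.32, adjusted p = 0.0362), against 3.36% of all genes lower. In adipose tissue the members' median was −0.73, against 0.012 over all genes, but edgeR called no collagen and no gene at all, with 11 of 35 members at an unadjusted p under 0.05 and 4 called by DESeq2. Collagens there took 0.767% ± 0.367 of counts in treated and 1.37% ± 0.429 in aged control tissue (SD, n = 5 each). Heart and frontal cortex had no collagen called with edgeR, against 2.48% and 0.0274% of all genes, with 7 and 3 at an unadjusted p under 0.05 and 2 and 0 by DESeq2.

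In muscle of aged ST mice given rapamycin 13 of 36 collagens were lower and none higher than in aged controls, against 4.73% of all genes lower, with a median of −0.66, against 0.006 over all genes. Lower were 6 of 10 fibrillar, 4 of 8 basement membrane and 3 of 18 other collagens. Col1a1 had 34, 23.8, 49.6, 8.97 and 18.4 CPM in rapamycin-treated muscle, against 74.7, 55.8, 50.4, 54.8 and 72.8 CPM in aged controls, without overlap (−1.19 ± 0.33, adjusted p = 0.0241). Col4a2 had 40.6, 30.1, 64.9, 23.5 and 25.1 CPM in treated muscle, against 106, 74.1, 61, 72.1 and 112 CPM in aged controls, with 1 treated library above the lowest control (−1.21 ± 0.29, adjusted p = 0.01). Col5a1 had the smallest adjusted p (−0.92 ± 0.20, adjusted p = 0.00614), followed by Col6a3 (−1.24 ± 0.29, adjusted p = 0.0102), and Col15a1 fell by 1.27 ± 0.32 (adjusted p = 0.0132).

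Col3a1 (−1.07 ± 0.28, adjusted p = 0.0178), Col1a2 (−0.83 ± 0.25, adjusted p = 0.0336), Col4a1 (−1.15 ± 0.29, adjusted p = 0.0158) and Col18a1 (−0.88 ± 0.29, adjusted p = 0.0498) fell, and so did Serpinh1 (−0.88) and Loxl2 (−0.76). Endothelial markers were lower for 3 of 6 (70.5 to 190 CPM in treated and 169 to 223 CPM in aged control muscle) and smooth muscle markers for 4 of 7, and no fibroblast marker was called, with their part in the result not tested. None of the 13 calls was made when only these 2 conditions were fitted, which leaves fewer animals to estimate the spread. The count was 5 without rapamycin replicate E36 or E6 and 7 without E22.

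In frontal cortex of rapamycin-treated mice 9 of 43 collagens were higher and none lower, against 7.8% of all genes higher, with a median of 0.22, against 0.005 over all genes. Col6a2 had 41.8, 33.8, 40.7, 35 and 39.9 CPM in treated mice, against 19.9, 22.5, 30.2, 20.2 and 26.6 CPM in aged controls, without overlap (0.68 ± 0.10, adjusted p = 8.08e-05). Col1a1 had 19.7, 10, 11.8, 7.51 and 11.3 CPM in treated mice, against 6.7, 7.48, 7.06, 6.28 and 7.15 CPM in aged controls, and the lowest treated library was just above the highest control (0.80 ± 0.22, adjusted p = 0.0149). Col8a2 (0.87 ± 0.20, adjusted p = 0.00411), Col5a1 (0.41 ± 0.11, adjusted p = 0.00932), Col1a2 (0.63 ± 0.20, adjusted p = 0.0269), Col16a1, Col5a3, Col26a1 and Col7a1 rose, and Col3a1, Col4a1, Col4a2, Col6a1, Col15a1 and Col18a1 were not called. Of the folding list P3h3, Fkbp10 and Colgalt1 rose and P4ha1 fell. None of 5 tested fibroblast markers was called, with a summed level of 89.6 to 108 CPM in treated and 85.4 to 120 CPM in aged control cortex. The endothelial gene Egfl7 (0.44), the pericyte gene Pdgfrb (0.27) and the tendon and cartilage genes Fmod (0.65) and Scx (0.91) were higher, and the endothelial gene Kdr (−0.52) and the macrophage gene Adgre1 (−0.43) lower, with their part in the result not tested. The count of higher members was 3 without rapamycin replicate E10, 4 without aged control E13, 5 without rapamycin E6 and 3 with the length and GC trend removed, and Col6a2, Col8a2 and Col5a1 were called whichever animal was left out.

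In heart rapamycin gave 3 of 33 higher and 7 lower, against 13.3% and 10.1% of all genes. Col3a1 had 180, 181, 288, 83.1 and 81.4 CPM in treated hearts, against 320, 352, 259, 369 and 312 CPM in aged controls, with 1 treated heart in the control range (−0.99 ± 0.22, adjusted p = 0.0033). Col7a1 had 1.68, 2.11, 3.81, 1.69 and 2.21 CPM in treated hearts, against 0.759, 1.04, 0.319, 0.694 and 0.739 CPM in aged controls, without overlap (1.68 ± 0.28, adjusted p = 0.000533). Col22a1 (1.32 ± 0.33, adjusted p = 0.00679) and Col11a2 (1.20 ± 0.34, adjusted p = 0.014) rose, and Col8a1 (−0.80 ± 0.20, adjusted p = 0.00614), Col4a3 (−1.08 ± 0.27, adjusted p = 0.00684), Col5a2, Col6a3, Col14a1 and Col4a4 fell. Col1a1 was at 0.01 (adjusted p = 0.98), and Col1a2, Col4a1, Col4a2, Col6a1, Col15a1 and Col18a1 were not called. Macrophage markers were lower for 4 of 5 (352 to 862 CPM in treated and 497 to 1404 CPM in aged control hearts), 2 of 2 adipocyte markers higher (72 to 134 CPM in treated and 32.1 to 51.1 CPM in aged control hearts) 2 of 3 mesothelial markers higher (3.99 to 102 CPM in treated and 3.12 to 8.42 CPM in aged control hearts) and 2 of 4 tested tendon and cartilage markers higher (12.6 to 83.3 CPM in treated and 9.66 to 19.1 CPM in aged control hearts), with their part in the result not tested. With only the 2 conditions fitted, 3 of the lower members were called.

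In hippocampus of rapamycin-treated mice 3 of 42 collagens were higher, against 14% of all genes higher. Col7a1 had 5.68, 5.21, 6.06, 5.63 and 6.5 CPM in treated mice, against 3.56, 3.45, 3.35, 3.83 and 4.05 CPM in aged controls (0.67 ± 0.11, adjusted p = 3.66e-05), and Col16a1 had 20.1, 14.6, 16, 19.7 and 16.8 CPM, against 12.6, 13.2, 9.78, 12.8 and 11.4 CPM in aged controls (0.55 ± 0.13, adjusted p = 0.00243). Neither overlapped, and Col11a2 was the third (0.46 ± 0.14, adjusted p = 0.0171). Of 5 macrophage markers 3 were lower (127 to 147 CPM in treated and 154 to 225 CPM in aged controls), with their part in the result not tested. The count was 5 without exenatide replicate E7 or aged control E29 and 7 without aged control E30. Colon had 4 of 38 lower, against 0.309% of all genes lower. Col15a1 there had 23.2, 28.1, 20.1, 29.2 and 29.4 CPM in treated mice, against 50.3, 40.5, 47, 55.1 and 37.2 CPM in aged controls (−0.82 ± 0.18, adjusted p = 0.0315). Col4a1 had 96.9, 106, 111, 101 and 116 CPM in treated mice, against 195, 146, 161, 188 and 146 CPM in aged controls (−0.66 ± 0.15, adjusted p = 0.0354), and neither gene overlapped. None of the 4 colon calls was made with only the 2 conditions fitted, or without any of 5 single animals (aged controls E13, E23 and E30, rapamycin E10 and E22). The count was 1 or 2 without any of 5 others (exenatide E7, knockdown E8, aged control E32, rapamycin E28 and E36). In white blood cells Col27a1 was lower (−1.32 ± 0.38, adjusted p = 0.0243), against 6.32% of all genes lower, and in adipose tissue edgeR called no collagen, against 0.00566% of all genes, with 7 of 35 at an unadjusted p under 0.05 and 0 by DESeq2.

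The hypothalamic GLP-1R knockdown was compared with aged controls without it. Of 242 member and tissue combinations 0 were higher and 5 lower, against 1.9% and 1.37% of all gene and tissue combinations. At an unadjusted p under 0.05 were 42, and DESeq2 called 13. In hippocampus Col7a1 had 3, 2.13, 2.72, 2.85 and 2.51 CPM with the knockdown, against 3.56, 3.45, 3.35, 3.83 and 4.05 CPM in aged controls, without overlap (−0.47 ± 0.12, adjusted p = 0.02). Col4a2 had 68.9, 67.1, 74.2, 70.2 and 70.5 CPM with the knockdown, against 85.5, 93.2, 61.2, 96.7 and 93.9 CPM in aged controls (−0.29 ± 0.09, adjusted p = 0.0472), where 1 control lay below all knockdown libraries. Col6a6 was the third (−1.16 ± 0.32, adjusted p = 0.0302), against 1.71% of all hippocampal genes lower. None of the 3 was called whichever animal was left out: the count was 0 without knockdown replicate E9, 1 without knockdown E35 or E8 or aged control E23 or E30, and 7 without knockdown E21. Of 30 animals left out in turn, 23 ended the Col4a2 call, 5 the Col6a6 call and 2 the Col7a1 call. With only the conditions compared, edgeR called none of them (adjusted p = 0.339, 0.127 and 0.255). Col4a2 was also not called without the filter on low counts (adjusted p = 0.0535) or with the length and GC trend removed (adjusted p = 0.065). In muscle Col8a2 had 0.119, 0.395, 0.202, 0.215 and 0.145 CPM with the knockdown, against 1.36, 1.33, 0.87, 1.14 and 1.43 CPM in aged controls, without overlap (−2.49 ± 0.49, adjusted p = 0.00942). Col11a1 had 0.199, 0, 0.337, 0 and 0.0723 CPM with the knockdown, against 1.53, 0.703, 0.643, 1.18 and 0.263 CPM in aged controls (−2.72 ± 0.74, adjusted p = 0.038), against 1.69% of all muscle genes lower. The Col11a1 call was lost with 6 of 30 animals left out in turn and without the filter on low counts (adjusted p = 0.0615, edgeR). Endothelial markers were lower for 4 of 6 in the same muscle (91.4 to 134 CPM with the knockdown and 169 to 223 CPM in aged controls), as were the smooth muscle and pericyte genes Notch3 (−1.39) and Pdgfrb (−0.88) and the tendon gene Fmod (−2.23), with their part in the result not tested.

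Within mice carrying the knockdown, exenatide was called only in hippocampal collagens among the 7 tissues with edgeR. There 7 of 42 members were higher and none lower, a share near that of all genes, of which 16.1% were higher. Called higher in the same hippocampi were the markers Egfl7 of endothelium (0.51), Pomc of hypothalamus (1.04) and Neurod6 of frontal cortex (0.185). Called lower were Ptprc of leukocytes (−0.72), Csf1r of macrophages (−0.27) and the hippocampus markers Zbtb20 (−0.41) and Prox1 (−0.285). Their part in the result was not tested. Col7a1 had 3.69, 4.3, 5.09, 5.19 and 5.69 CPM with exenatide and knockdown, against 3, 2.13, 2.72, 2.85 and 2.51 CPM with knockdown alone, without overlap (0.86 ± 0.12, adjusted p = 1.11e-06). Col4a2 had 89.1, 97.1, 99.8, 97.6 and 99.8 CPM with exenatide and knockdown, against 68.9, 67.1, 74.2, 70.2 and 70.5 CPM with knockdown alone, also without overlap (0.46 ± 0.09, adjusted p = 0.000151). Col16a1 had 12.7, 12.6, 17.2, 19.2 and 18.2 CPM, against 12.7, 8.84, 9.56, 8.54 and 9.82 CPM with knockdown alone, which touched at 1 library (0.69 ± 0.13, adjusted p = 0.000178). Col11a2 (0.64 ± 0.14, adjusted p = 0.0011), Col26a1, Col11a1 and Col4a1 (0.27 ± 0.07, adjusted p = 0.00704) rose too. All 7 were called whichever animal was left out. In the other tissues edgeR called none, with 15 of 38 members at an unadjusted p under 0.05 in colon, 10 of 33 in heart and 6 of 36 in muscle, and 2, 6 and 1 called by DESeq2.

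The difference between the exenatide effect with and without the knockdown was tested as an interaction. In hippocampus it was not called for Col7a1 (0.29 ± 0.16, adjusted p = 0.533), Col4a2 (0.12 ± 0.12, adjusted p = 0.796) or Col16a1 (−0.01 ± 0.19, adjusted p = 0.995). In muscle it was called for 8 of 36 collagens, 6 with a more positive and 2 with a more negative effect of exenatide under knockdown, against 9.28% and 9.82% of all genes, so that the share called in all was near that of all genes. In the same test all 6 endothelial markers (1.17 to 2.32), 4 smooth muscle and pericyte markers (1.54 to 2.59) and 3 tendon and cartilage markers (4.92 to 6.10) had positive interactions and 5 fibroblast markers negative ones (−1.34 to −1.08), with their part in the result not tested. Col22a1 had 19.5, 12.4, 15.3, 20.7 and 21.4 CPM with exenatide and knockdown, against 17.6, 17.6, 16.2, 11.5 and 9.08 CPM with knockdown alone, an effect of 0.31 ± 0.21 (adjusted p = 0.567). This differed by 1.54 ± 0.30 from the effect without knockdown (adjusted p = 0.000851). Col8a2 had 0.547, 0.462, 0.462, 1.2 and 0.173 CPM with exenatide and knockdown, against 0.119, 0.395, 0.202, 0.215 and 0.145 CPM with knockdown alone, an effect of 1.41 ± 0.50 (adjusted p = 0.207) and an interaction of 3.55 ± 0.69 (adjusted p = 0.000822). These 2 genes were lower with exenatide in the mice without knockdown and showed overlapping groups in those with it. Col8a2 was already lower with the knockdown alone than in aged controls (−2.49, adjusted p = 0.00942, edgeR). Its interaction therefore compares exenatide effects from unlike starting levels, and the level with the knockdown alone was near the floor.

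Col20a1 (0.86 ± 0.17, adjusted p = 0.00113), Col11a1 (4.23 ± 1.07, adjusted p = 0.00627), Col12a1 (1.95 ± 0.54, adjusted p = 0.0119) and Col4a2 (1.27 ± 0.40, adjusted p = 0.0256) had positive interactions, and Col4a4 (−1.21 ± 0.32, adjusted p = 0.00893) and Col4a3 (−0.98 ± 0.33, adjusted p = 0.0341) negative ones. Col11a1 had 0.0769, 0.231 and 1.01 CPM with exenatide and knockdown (lowest, median and highest), against 0, 0.0723 and 0.337 CPM with knockdown alone. Col12a1 had 2.07, 3.01 and 10.6 CPM with both, against 2.02, 2.7 and 3.14 CPM with knockdown alone. In aged controls without knockdown Col12a1 had 4.48, 5.68 and 6.77 CPM. Col11a1 was also lower with the knockdown alone than in aged controls (−2.72, adjusted p = 0.038, edgeR). The Col12a1 interaction was not called by edgeR without exenatide and knockdown replicate E33 (adjusted p = 0.0506). Col4a2 had 38.2, 55.3, 49, 68.2 and 22.3 CPM with exenatide and knockdown, against 57.4, 44.8, 32.6, 41.7 and 40.9 CPM with knockdown alone, a full overlap. Col1a1, Col1a2, Col3a1, Col4a1, Col6a1, Col15a1 and Col18a1 were not called. In the interaction test Ccn2 (2.26), Itga10 (1.77), Tgfb1 (1.04), Plod3 (0.70) and Plod1 (0.58) had positive interactions. The collagen receptor Ddr2 (−0.99), Fap (−0.90) and Tgfbr1 (−0.77) had negative ones. Col8a2, Col11a1, Col20a1, Col22a1 and Col4a4 were called whichever animal was left out. With the length and GC trend removed, edgeR no longer called Col20a1 (0.37, adjusted p = 0.168), Col4a2 (0.72, adjusted p = 0.156) or Col4a3 (−0.997, adjusted p = 0.0521). In the other 6 tissues edgeR called no interaction for a collagen, with 0 to 10 members at an unadjusted p under 0.05 in each and 0 by DESeq2.

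The paired collagen IV genes can be set side by side. Col4a1 and Col4a2, which share their start region, had fold changes of the same sign in each tissue and comparison where both were called: −0.53 and −0.56 in LT lung with age, −0.73 and −0.74 in LT adipose tissue with age, 0.35 and 0.40 in LT kidney with exenatide, −0.84 and −1.03 in ST heart with age, −0.94 and −1.17 in ST muscle with exenatide, −1.15 and −1.21 in ST muscle with rapamycin and 0.27 and 0.46 in ST hippocampus with exenatide within the knockdown. Col4a3 and Col4a4 fell together with age in LT adipose tissue (−2.02 and −1.75), LT colon (−1.68 and −0.99), ST muscle (−0.77 and −0.75) and ST hippocampus (−1.80 and −1.46), where the hippocampal pair rested on young replicate A47 as given above, and with rapamycin in ST heart (−1.08 and −0.61). In ST muscle the direction of Col4a4 with exenatide was opposite to that of Col4a1 and Col4a2, at 0.77 ± 0.23.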

How the data were processed

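Libraries were poly(A)-selected and made without a strand mark, from tissue kept in RNAlater, per the labels' protocols. FastQC 0.11.9 and build GRCm39 are named in the submitters' processing notes. No label or file header used here names an aligner, a counter or an annotation. The deposited LT table holds whole-number counts per gene, and the deposited ST and YA tables hold estimated counts by the authors, which were rounded (7.37% and 7.21% of the values above 0 were not whole). All columns of per-sample values were mapped to samples by their names. 1 LT exenatide colon is labelled gastrointestinal tract but titled colon and was used as colon.

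Each cohort and tissue was fitted with edgeR 4.0.16 in R 4.3.3 over all its conditions, with TMM, filterByExpr by condition, robust glmQLFit and, in the 10 LT tissues sequenced in 2 batches, a batch term. Liver and white blood cells came from 1 batch. The 9 comparisons were tested with glmQLFTest. The standard error is the fold change divided by the square root of F. CPM are TMM-scaled, and shares are percent of all counts, both computed from the deposited counts. The tests were checked on simulated counts with known changes. Collagen transcripts are long (median 5989 bases, against 2895 over the LT genes) and GC-rich (median 55.1%, against 49.5%), so 1 alternative removed a smooth trend on both. Other alternatives were DESeq2 1.42.0, its size factors, no filter on low counts, only the conditions compared, no batch term, single batches and leaving out each animal.

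Members, gene lists and tests were chosen with earlier results of these data known. In the tissues and comparisons described at most length, the text gives most or all of Col1a1, Col1a2, Col3a1, Col4a1, Col4a2, Col6a1, Col15a1 and Col18a1, and further called members. Elsewhere it names all or some of the called members, and for LT age in white blood cells only their number. In several cases with 5 or more calls, up to 4 genes of each companion list follow.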

Additional observations from a re-analysis of the deposited data

Results flagged for a closer look

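Some libraries stood apart from the rest of their group in the collagen share of all counts, in 12 of 94 groups, or in the level of a member, in 20 of 216 groups. Chance alone gives about 1 in 20 groups.

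The share was 0.503% in LT exenatide lung B28 (next 0.33%), 0.208% in LT exenatide kidney B30 (next 0.174%), 0.0037% in LT exenatide white blood cells B13 (next 0.00526%) and 0.00492% in LT young white blood cells A52 (next 0.00584%). It was 1.59% in ST rapamycin adipose tissue E22 (next 0.776%), 0.0757% in ST rapamycin hippocampus E36 (next 0.0628%), 0.0742% in ST exenatide frontal cortex E5 (next 0.0639%) and 0.0726% in ST exenatide muscle E5 (next 0.0569%). In the YA cohort it was 0.224% in exenatide colon A31 (next 0.19%), 0.0717% in exenatide hypothalamus A31 (next 0.0603%), 0.27% in control colon A33 (next 0.179%) and 0.0406% in control muscle A33 (next 0.0628%).

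Exenatide lung B28 stood apart for the 3 main fibrillar genes together, with 522 CPM of Col1a1 (next 146), 625 CPM of Col1a2 (next 259) and 934 CPM of Col3a1 (next 285). Young lung A54 was lowest for both chains of the general basement membrane, with 388 CPM of Col4a1 (next 667) and 374 CPM of Col4a2 (next 591). In LT aged controls, muscle B15 had 0.736 CPM of Col11a1 (next 0.419), adipose tissue B39 3.81 CPM of Col4a3 (next 2.34) and kidney B27 359 CPM of Col4a3 (next 292). Exenatide kidney B36 had 54.8 CPM of Col8a1 (next 29.5).

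In the ST cohort, rapamycin animal E28 had 3.81 CPM of Col7a1 in heart (next 2.21) and 26.8 CPM of Col22a1 (next 15.4) and 0.816 CPM of Col11a1 (next 0.219) in muscle. Exenatide muscle E25 had 0.409 CPM of Col8a2 (next 0.254) and E31 51.7 CPM of Col4a2 (next 36.5). With exenatide and knockdown, hippocampus E12 had 89.1 CPM of Col4a2 (next 97.1) and muscle E33 10.6 CPM of Col12a1 (next 3.32). Aged control hippocampus E30 had 3.74 CPM of Col8a1 (next 1.28). Young hippocampus A47 had 155 CPM of Col9a3 (next 53.4), and young muscle A46 90.8 CPM of Col1a1 (next 52.5) and 83.9 CPM of Col4a2 (next 46.5).

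The exenatide effect in ST muscle differed with and without the knockdown by an edgeR interaction test for Col8a2 (3.55), Col22a1 (1.54), Col20a1 (0.86), Col11a1 (4.23), Col12a1 (1.95), Col4a2 (1.27), Col4a4 (−1.21) and Col4a3 (−0.98), all log2 differences of the effect with the knockdown minus the effect without it.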

How the results depend on the processing

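Of 205 called combinations of a collagen, a tissue and a comparison, 102 were called whichever animal was left out and 48 under all alternatives and all such omissions. DESeq2's Wald test called all 205. With its size factors in edgeR 4 of the 205 were no longer called, without the filter on low counts 40 of 205, with the length and GC trend removed 70 of 205, with only the conditions compared 53 of 198, without the batch term 12 of 79, in batch 3 alone 72 of 82 and in batches 1 and 2 alone 48 of 85. The smaller totals are the combinations each alternative could be run on. Col18a1 in kidney with LT exenatide was at −0.001 with that trend removed (adjusted p = 0.996, edgeR), so its effect was lost rather than reversed. In each case not named otherwise, the cause was not tested.

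For LT age, over the 11 tissues of batch 3, the 16 higher calls became 1 and the 50 lower calls 6 in batch 3 alone, where fewer animals were fitted, and the 19 higher calls became 10 in batches 1 and 2 alone. For LT exenatide the 11 higher calls became 20 with DESeq2, 5 with the trend removed and 6 in batch 3 alone, 9 of them became 3 over the 11 tissues of batches 1 and 2 alone, and the 5 lower calls became 3 without the filter, 17 with DESeq2, 8 with only the conditions compared, 3 in batch 3 alone and 2 in batches 1 and 2 alone. For ST age the 9 higher calls became 4 without the filter, 5 with only the conditions compared and 5 with the trend removed. For ST exenatide the 18 lower calls became 33 with DESeq2 and 11 with the trend removed. For ST rapamycin the 15 higher calls became 9 with the trend removed and the 25 lower calls 6 with only the conditions compared. For the knockdown the 5 lower calls became 3 without the filter and 13 with DESeq2. For exenatide within the knockdown the 0 lower calls became 10 with DESeq2, 2 with only the conditions compared and 1 with the trend removed. For the interaction the 2 lower calls became 1 without the filter and 1 with the trend removed. The collagen share of LT aged control white blood cells was 0.0049% when TMM-scaled, the only one of 94 group means to move by over 1 SD.

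Leaving out 1 animal gave 12 to 20 higher and 39 to 59 lower calls for LT age, 7 to 13 and 3 to 13 for LT exenatide, 3 to 12 and 14 to 25 for ST age, 7 to 10 and 9 to 25 for ST exenatide, 10 to 17 and 11 to 27 for ST rapamycin, 0 to 1 and 1 to 8 for the knockdown, 7 to 9 and 0 to 5 for exenatide within the knockdown, 4 to 8 and 1 to 2 for the interaction, and 0 to 1 and 0 to 0 for YA exenatide. No paired analysis was possible because each animal belongs to 1 condition and the animal codes are not shared between conditions. Members near or below 1 CPM rest on few counts.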
